A study of Mus musculus with 18 samples.

Results

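Promoter upstream transcripts (PROMPTs) are short RNAs made from the upstream side of a promoter, on the strand opposite to the gene. The PROMPTs described here belonged to coding genes with high read counts over the whole gene in mouse embryonic stem (ES) cells. They were selected on measured values. A PROMPT was kept when its own mean normalised read count, the baseMean, was 1 or more and when the gene of the same symbol had a baseMean of 3000 or more. Symbols of the numbered Zfp zinc finger series were left out, which removed 52 PROMPTs that met both limits. This gave 2809 PROMPTs of 32253 in the table, or of 10875 with a baseMean of 1 or more.

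Nascent RNA was measured by transient transcriptome sequencing (TT-seq), in which cells are fed the uridine analogue 4sU for 5 min and only the newly made RNA that carries it is sequenced. The 18 libraries came from E14 ES cells, a male line grown without feeder cells with LIF and 2 kinase inhibitors, in 6 groups of 3. All cells carried the plant F-box protein osTIR1. Untagged cells had no further change, while in each of 2 clones the C terminus of SPT16 was fused to a mini auxin-inducible degron (AID) and a triple V5 tag. SPT16 is the larger subunit of FACT, a histone chaperone that takes apart and rebuilds nucleosomes in the path of RNA polymerase II. Each line was treated for 24 h with 3-IAA, an auxin that sends the tagged protein to the proteasome, or with 0.1% EtOH as its vehicle. The labels give 500 nM for 3-IAA while the study's methods give the dose in micromolar units, so it is not settled. Each tagged line was 1 clone.

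The baseMean is the authors' mean over libraries, taken here to be control and SPT16-depleted ones together. It has no replicate error here and says nothing about depletion. Which libraries entered the mean is not given in the sources used here, and the depth of single libraries is unknown. The cells' identity was read from the same gene values. The 10 ES cell markers had a median gene baseMean of 7177 with a range of 248 to 64437, where 8 fibroblast feeder markers had a median of 7.66, 6 primitive endoderm markers 54.6, 6 trophectoderm markers 167 and 5 neural markers 35.8. In the neural list Tubb3 and Neurod1 were listed at 0, Pax6 at 35.8, Sox1 at 245 and Nes at 1097. The highest value was 212 among feeder markers, 455 among primitive endoderm markers and 1074 among trophectoderm markers. Except for feeder markers, each list thus reached above the lowest ES cell marker, Utf1 at 248.

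Most promoters of mammalian coding genes start RNA polymerase II in both directions. The upstream product is capped but usually ends early, at polyadenylation signals that are not held in check by nearby 5′ splice sites, and the nuclear exosome soon degrades it. Steady-state RNA therefore holds little of it, and labelling of nascent RNA is a way to count it before it is lost.

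The first 300 bases of 6 PROMPT windows are shown to let the promoters at both ends of the range be read beside their values. They were chosen after the values were seen. Mcl1 had the highest PROMPT on a nuclear chromosome, Tmco1 and Opa3 were among the 5 with the most PROMPT for their gene, Nanog and Sox2 encode core pluripotency factors, and Jade1 had the second lowest PROMPT for its gene. Each sequence is from GRCm38, reads 5′ to 3′ along the PROMPT strand and begins at the base next to the annotated gene start. That start lay 410 bp from the nearest RefSeq start for Sox2, 292 bp for Tmco1 and 67 bp or less for the others. The PROMPTs of Sox2 and Tmco1 may therefore begin elsewhere than the printed bases. Capitals mark the letters GGGCGG on either strand, which are those of the GC box bound by Sp1 family factors. Only letters were matched and repeats were not masked, so a marked stretch may lie in a repeat and need not be a bound site.
Mcl1 PROMPT start, chr3:95658488-95658787, minus strand: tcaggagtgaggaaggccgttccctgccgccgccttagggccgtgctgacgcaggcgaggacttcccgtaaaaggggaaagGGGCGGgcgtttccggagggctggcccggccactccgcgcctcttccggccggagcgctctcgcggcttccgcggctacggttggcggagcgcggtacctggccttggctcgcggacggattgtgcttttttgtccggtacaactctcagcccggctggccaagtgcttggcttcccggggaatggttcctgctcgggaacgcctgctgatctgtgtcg
Tmco1 PROMPT start, chr1:167308078-167308377, minus strand: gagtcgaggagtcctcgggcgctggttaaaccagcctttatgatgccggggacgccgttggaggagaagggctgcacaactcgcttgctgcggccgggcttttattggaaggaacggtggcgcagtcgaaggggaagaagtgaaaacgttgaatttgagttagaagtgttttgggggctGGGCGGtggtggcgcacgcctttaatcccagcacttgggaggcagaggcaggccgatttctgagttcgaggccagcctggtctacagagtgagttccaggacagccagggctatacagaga
Opa3 PROMPT start, chr7:19228034-19228333, minus strand: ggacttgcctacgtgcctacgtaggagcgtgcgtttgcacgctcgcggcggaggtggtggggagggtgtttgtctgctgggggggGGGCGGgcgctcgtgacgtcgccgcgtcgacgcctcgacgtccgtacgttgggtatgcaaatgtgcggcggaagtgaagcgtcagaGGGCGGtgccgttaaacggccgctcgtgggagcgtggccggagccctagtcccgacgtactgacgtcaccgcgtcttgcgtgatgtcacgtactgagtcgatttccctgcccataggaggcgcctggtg
Nanog PROMPT start, chr6:122707189-122707488, minus strand: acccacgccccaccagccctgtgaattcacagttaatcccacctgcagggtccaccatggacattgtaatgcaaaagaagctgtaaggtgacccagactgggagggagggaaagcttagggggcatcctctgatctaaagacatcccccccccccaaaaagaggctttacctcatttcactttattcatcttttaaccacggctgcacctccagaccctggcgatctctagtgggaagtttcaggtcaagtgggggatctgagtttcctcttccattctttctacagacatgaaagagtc
Sox2 PROMPT start, chr3:34650105-34650404, minus strand: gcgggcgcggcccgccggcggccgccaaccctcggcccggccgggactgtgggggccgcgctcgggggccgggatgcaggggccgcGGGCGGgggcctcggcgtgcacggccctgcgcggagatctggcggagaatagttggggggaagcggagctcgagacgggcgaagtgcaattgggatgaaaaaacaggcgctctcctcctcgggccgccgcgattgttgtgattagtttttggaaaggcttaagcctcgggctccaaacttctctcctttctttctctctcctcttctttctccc
Jade1 PROMPT start, chr3:41555431-41555730, minus strand: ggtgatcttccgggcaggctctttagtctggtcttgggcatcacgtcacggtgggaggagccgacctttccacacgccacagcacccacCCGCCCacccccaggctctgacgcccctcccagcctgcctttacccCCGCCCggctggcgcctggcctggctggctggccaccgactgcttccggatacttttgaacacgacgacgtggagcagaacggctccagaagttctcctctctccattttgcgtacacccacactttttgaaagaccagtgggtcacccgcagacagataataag

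The Nanog sequence held 3 CG dinucleotides and no GGGCGG. Mcl1 and Sox2 held 33 CG dinucleotides and Opa3 held 40, while Tmco1 and Jade1 both held 18. Neither GGTAAG, the letters of a strong 5′ splice site, nor AATAAA, the usual polyadenylation signal, occurred on the PROMPT strand of these 300 bases in any of the 6.

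PROMPT reads were few beside the reads of their genes. The PROMPT baseMean of the 2809 members had a median of 8.44, with quartiles at 3.07 and 21.6 and a highest value of 704. Their gene baseMean ran from 3001 to 119344 with a median of 7055. PROMPT reads were thus a median of 0.112% of gene reads, with quartiles at 0.0410% and 0.297%. The ratio sets a window of about 1 kb against a whole gene, and the PROMPT and gene tables may not share 1 scale, so its absolute size is uncertain. Per kb of gene span, introns included, the median ratio was 4.73%, and per kb of exon it was 0.623%.

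The spreads of PROMPT and gene baseMean among the members depend on the limits that selected them. The 95th percentile was 60.4 times the 5th for PROMPT baseMean, 7.93 times for gene baseMean and 90.8 times for the ratio. The limits of 1 and 3000 cut off the lower ends, and PROMPTs near 1 rest on few reads. These spreads therefore do not show that PROMPTs vary more than genes. A PROMPT baseMean of 100 or more was found for 84 members, 1271 members (45.2%) reached 10, and 428 were under 2. The 28 highest members, 1% of the set, held 12.8% of its summed PROMPT baseMean. As a whole the members were 8.71% of PROMPT rows and held 23.4% of all PROMPT baseMean. Those rows include 8996 listed at 0, while every member had to reach the PROMPT limit of 1, which 10875 rows met. The gap between the 8.71% and the 23.4% is thus built in by the selection and does not show an enrichment. The ratio was over 1% for 161 members (5.73%) and under 0.01% for 96.

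**Figure D1:**
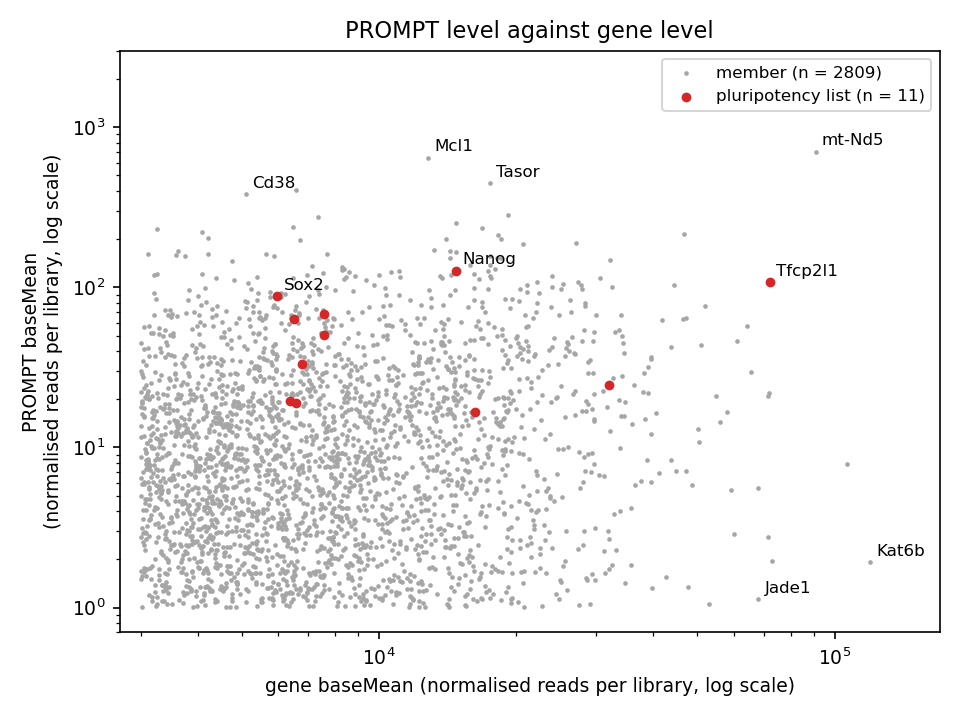
PROMPT baseMean (vertical, log scale) against gene baseMean (horizontal, log scale), both as normalised reads per library; each grey point is 1 of 2809 members and red points are the 11 members of the pluripotency list. PROMPTs span 1.00 to 704, with the lower edges of the cloud set by the limits of 1 and 3000, and the red points all lie above the members' median of 8.44.

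The 5 highest PROMPT values belonged to mt-Nd5, Mcl1, Tasor, Pkd2 and Cd38. The value of mt-Nd5 (chrM:11742-13565, plus strand), a mitochondrial subunit of respiratory complex I, was 704. Its window is not a nuclear promoter: mt-Nd4 and 3 mitochondrial tRNA genes are annotated there on the gene's own strand, and 2 members in all lay on the mitochondrial chromosome. Mcl1 (chr3:95658788-95663176, plus strand) encodes a short-lived anti-apoptotic BCL2 family protein. Its PROMPT had a baseMean of 646 beside a gene baseMean of 12836, a ratio of 5.03%. Tasor, a scaffold of the HUSH silencing complex, had a PROMPT of 446. Pkd2, the cation channel polycystin 2, had 403 and Cd38, an NAD-consuming ectoenzyme, had 380. No gene was annotated on the opposite strand in any of these 5 windows.

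Cd38 also led by ratio. Its PROMPT reads were 7.45% of its gene reads (gene baseMean 5099), ahead of 7.13% for Tmco1, a calcium channel of the endoplasmic reticulum, 6.14% for Pkd2, 5.45% for Opa3, a mitochondrial protein, and 5.17% for Nepro. The gene values behind these 5 ratios lay between 3114 and 6570, all under the members' median of 7055. None of the 5 windows held an annotated gene on the opposite strand, so these were also the 5 highest ratios among members without such a neighbour. The bases around their annotated starts were not alike. The ratio of observed to expected CpG, from 250 bases before to 50 after the start, was 0 for Cd38, 0.37 for Pkd2, 0.91 for Nepro, 0.92 for Tmco1 and 1.26 for Opa3. These starts lay 292 bp (Tmco1), 256 bp (Cd38), 55 bp (Opa3) and 7 bp (Pkd2) from the nearest RefSeq start, and none was found for Nepro. For Cd38 and Tmco1 the bases counted may therefore miss the promoter in use.

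At the other end were genes with very many reads and a PROMPT barely over the limit. The PROMPT limit of 1 sets this end, and genes that missed it went lower, such as Esrrb at 0.00023%. Kat6b, a histone acetyltransferase, had the highest gene baseMean of all members (119344) and a PROMPT of 1.92, the lowest ratio at 0.00161%. The annotated start used for Kat6b lay 18336 bp from the nearest RefSeq start, so its window and the promoter in use may not be the same. Jade1, a subunit of the HBO1 acetyltransferase complex, had its start 3 bp from a RefSeq start, and its PROMPT of 1.13 beside a gene value of 67999 gave 0.00166%. Trip12, a ubiquitin ligase, had 0.00199%, and Ncor1, a nuclear receptor corepressor, had 0.00281%. Trip12 and Ncor1 had the genes Fbxo36 and Pigl on the opposite strand of the window, and their starts lay 1212 bp and 1209 bp from a RefSeq start.

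The genes with the most reads did not share a PROMPT level. Beside Kat6b, they included Cmss1 with a gene baseMean of 106511 and a PROMPT of 7.89, mt-Nd5 with 90841 and 704, and Tfcp2l1, a transcription factor of naive pluripotency, with 72140 and 108. Per kb of span these 4 genes ran from 349 (Cmss1) to 49803 (mt-Nd5) normalised reads, with Tfcp2l1 at 1261.

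The limits cut through a continuous range. Just inside the PROMPT limit were Ryr2 (PROMPT 1.003, gene 12636) and Nrf1 (PROMPT 1.003, gene 20815), and just outside were Zbtb20 (PROMPT 0.998) and Trappc12 (PROMPT 0.996). Just inside the gene limit were Ism2 (gene 3001, PROMPT 8.77) and Pcgf6 (gene 3002, PROMPT 30.2), and just outside were Socs2 (gene 2998, PROMPT 11.3) and Hif1an (gene 2995, PROMPT 7.80).

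Whether PROMPTs follow their genes was examined over all coding genes with a PROMPT row, without the PROMPT limit. Among PROMPTs whose gene baseMean was under 10, 11.8% reached a PROMPT baseMean of 1. The share was 29.3% for genes between 10 and 100, 51.8% between 100 and 1000 and 68.0% between 1000 and 3000. It then hardly moved, at 69.9% between 3000 and 10000 and 70.6% at 10000 or more. Median PROMPT baseMean over the same ranges went from 0 to 0.23, 1.14, 2.83, 3.37 and 4.28. Of the 4005 genes at 3000 or more with a PROMPT row, 2809 (70.1%) were members, 1135 had a PROMPT above 0 but under 1, and 61 had a PROMPT listed at 0.

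**Figure D2:**
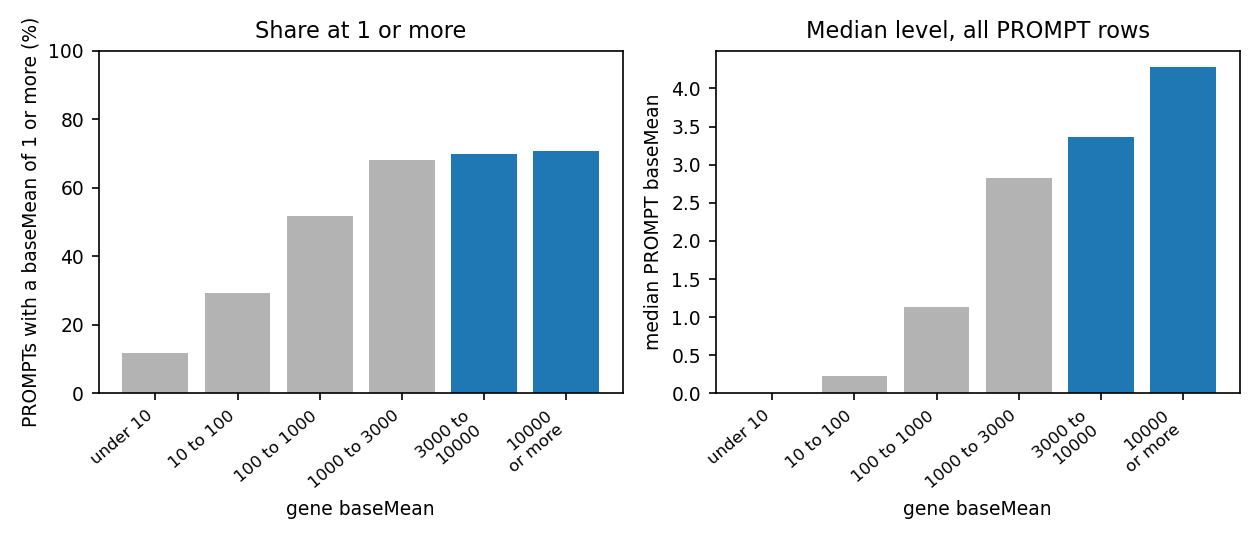
Share of PROMPTs with a baseMean of 1 or more (left, %) and median PROMPT baseMean over all PROMPT rows (right), by the baseMean of the gene; blue bars are the genes at 3000 or more, before the PROMPT limit. The share goes from 11.8% to 68.0% below 3000 and is 69.9% and 70.6% above it.

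The members were selected on both the PROMPT and the gene value, and these limits narrow the range over which the values can be related. Spearman's rho between PROMPT and gene baseMean was 0.11 over the 2809 members, against 0.57 over the 16282 coding genes with a PROMPT row and a gene baseMean above 0; both describe genes, which are not independent replicates, measured in the same libraries, and the lower value cannot be told apart from the effect of the limits. In quintiles of the members by gene baseMean, the median PROMPT was 7.22, 7.83, 7.62, 8.58 and 13.5 while the median gene value went from 3561 to 19281. The median ratio accordingly fell from 0.195% in the lowest quintile to 0.0588% in the highest, which the ratio's own denominator partly builds in.

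Gene baseMean counts reads over the whole gene, so long genes score high: its rho with gene span was 0.43. Members were thus not all strongly transcribed per kb of span. Their level per kb had a median of 185 and went down to 4.90. Other coding genes with a PROMPT baseMean of 1 or more had a median of 39.6. Per kb of span, rho with PROMPT baseMean was 0.27 over members and 0.69 over 16276 coding genes. In quintiles by gene level per kb, the median PROMPT was 4.85, 6.83, 8.50, 12.0 and 17.1, and the median ratio went from 0.0791% to 0.165%, the opposite way to that by gene baseMean. By span, from a median of 13010 bp in the shortest quintile to 137082 bp in the longest, the median PROMPT was 14.3, 7.89, 8.00, 8.50 and 6.08, so that the ends differed and the middle 3 lay close together (rho of -0.16 over members).

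**Figure D3:**
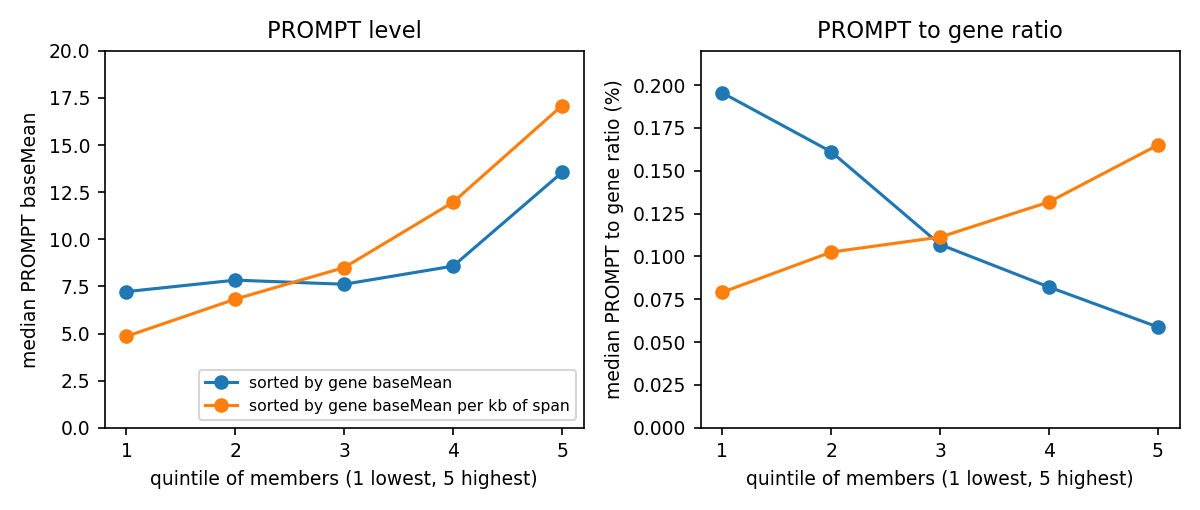
Median PROMPT baseMean (left) and median PROMPT to gene ratio (right, %) in quintiles of the 2809 members sorted by gene baseMean (blue) or by gene baseMean per kb of span (orange); each point is 561 or 562 members. PROMPT level is higher in the top quintile under both orders (13.5 and 17.1), while the ratio goes down to 0.0588% under the first and up to 0.165% under the second.

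The windows were then compared with the annotation. A gene on the strand of the PROMPT overlapped the window of 374 members (13.3%), against 11.2% of 14932 other coding genes. These 374 had a median PROMPT of 3.32 with quartiles at 1.70 and 9.22, and the 2435 without such a gene had 9.43 with quartiles at 3.57 and 23.9. Gene baseMean differed little, at 6723 and 7087, and the median ratio was 0.0539% with an annotated neighbour and 0.127% without, 2.36-fold higher. Where the neighbour started within 300 bp of the member's own start (168 members), as at a shared promoter of a divergent gene pair, the median PROMPT was 2.68. Among members with a PROMPT of 10 or more, the ratio without a neighbour was 1.08-fold that with it, but this limit selects on the PROMPT value itself and removes low PROMPTs from both sets, which narrows any gap.

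Protein-coding neighbours accounted for 217 of the 374, although the deposited notes describe PROMPTs near other coding transcripts as left out. Positions here came from another annotation release than the authors', and how reads under a neighbouring gene were assigned is not given in the sources used here. The other neighbours were mostly noncoding, such as 44 windows with a gene of the antisense class and 41 with a long intergenic RNA alone. A gene on the member's own strand lay in 104 windows (3.70%), with a median PROMPT of 9.42 there and 8.39 elsewhere.

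**Figure D4:**
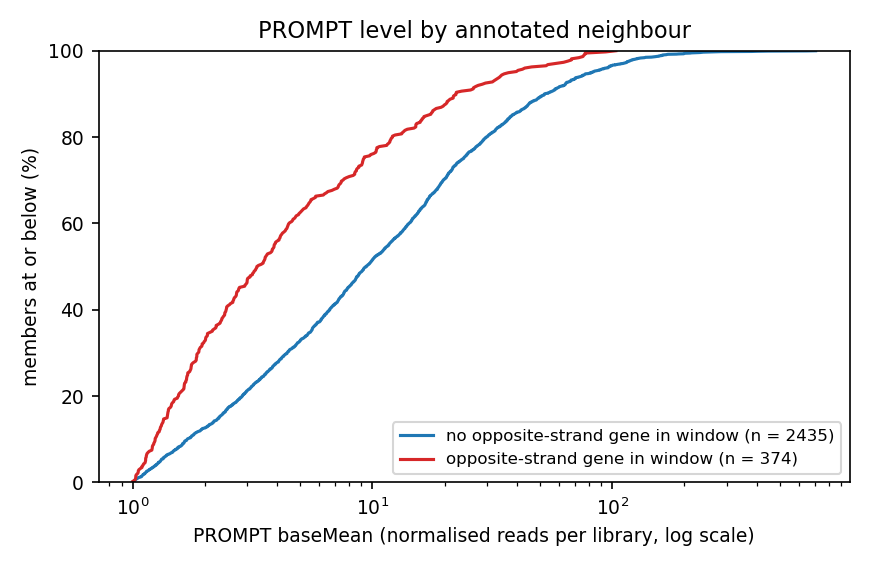
Cumulative share of members (vertical, %) at or below each PROMPT baseMean (horizontal, log scale), for 2435 members with no gene annotated on the opposite strand of the gene in the window (blue) and 374 with such a gene (red). The red curve lies to the left, with medians of 3.32 and 9.43.

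Member promoters held CG more often than coding promoters at large, while PROMPT level differed little with it among the members. CpG islands are stretches where CG has not been lost by methylation, and they mark the promoters of most widely used genes. An observed to expected CpG of 0.6 or more was found in 78.9% of member promoters and in 41.9% of all 17741 coding promoters. The latter are those of genes with a PROMPT row, members included and numbered Zfp genes left out. Without the members the share was 34.9%. The median CpG ratio was 0.807 in members, 0.586 in other coding PROMPTs with a baseMean of 1 or more and 0.484 in all coding promoters. Members above that limit had a median PROMPT of 8.73, and those under it 6.94. In quintiles by CpG the median PROMPT went from 6.74 to 9.73, with a rho of 0.06 over members and 0.40 over all coding genes.

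Motif letters were searched on both strands of the same 300 bases, and none of the motifs contains another. GGGCGG, the GC box, was in 67.4% of member promoters and 41.7% of all coding promoters. CCGGAAG, an ETS factor site, was in 17.4% and 9.63%, TGACGTCA, the cyclic AMP response element, in 4.13% and 2.23%, CACGTG, the E-box bound by MYC and USF, in 11.6% and 7.67%, and the NRF1 site in 2.17% and 1.12%. TATAAA, the TATA box, was less frequent, in 6.44% and 13.2%, and CCAAT, the NF-Y site, was as frequent in both sets at 39.0%. Base composition differed as well: the median GC of these bases was 61.3% in members and 54.3% in all coding promoters. How far the motif shares follow base composition was not tested. The shares describe genes selected for a high gene baseMean, set beside promoters with no PROMPT limit, and no test was made of them.

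Members with and without a motif had similar PROMPTs. The median was 8.48 with GGGCGG and 8.35 without, 9.14 with TATAAA and 8.33 without, and 10.0 with CACGTG and 8.23 without. The widest gap in ratio for these promoter motifs was that of CCGGAAG, 0.136% with and 0.108% without, and TGACGTCA had 0.138% and 0.112%.

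The letters that bear on how far a PROMPT is made were counted on the PROMPT strand of the whole 1000 bp window. GGTAAG was present in 12.9% of member windows and 14.0% of all coding windows, and AATAAA in 42.3% and 42.4%. Members with GGTAAG had a median PROMPT of 7.23 and those without it 8.57. With AATAAA the median was 8.19 and without it 8.52. No test was made of these gaps.

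The 11 members that encode pluripotency factors ranged in PROMPT baseMean from 16.7 to 127. Their list held 25 genes, 16 of them with a gene baseMean of 3000 or more, and all 11 members had a PROMPT over the members' median of 8.44. Their median PROMPT was 50.3 and their median ratio 0.489%, where all members had 8.44 and 0.112%; 9 of the 11 ratios were over the latter. Their median gene level per kb of span was 1273, where that of all members was 185. PROMPT baseMean had a rho of 0.27 with that measure over members, so the list also differs in a trait that goes with PROMPT level. The list was written with earlier results of these data known, and its position was not tested.

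Nanog (chr6:122707489-122714633, plus strand), the homeobox factor of naive pluripotency, had the highest PROMPT of the list at 127, with a gene baseMean of 14788 and a ratio of 0.860%. Its promoter had a CpG ratio of 0.19. Tfcp2l1 followed at 108. Sox2 (chr3:34650405-34652461, plus strand) had 88.1 and the list's highest ratio among members, 1.47%; the long noncoding gene Sox2ot is annotated across its window on the strand of Sox2. The values were 68.4 for Fgf4, a growth factor that primes ES cells to differentiate, 63.7 for Dppa5a, an RNA-binding protein of pluripotent cells, and 50.3 for Pou5f1, which encodes OCT4. The annotated start of Fgf4 lay 14019 bp from the nearest RefSeq start and that of Sox2 lay 410 bp from it, so these windows may miss the promoter in use.

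The remaining pluripotency members had lower PROMPTs. They were Klf4 with 33.1, the nuclear receptor Nr5a2 with 24.5, Klf2 with 19.6, the Nodal coreceptor Tdgf1 with 19.0 and Klf5 with 16.7. Nr5a2 had the list's lowest member ratio, 0.0768%.

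Esrrb and Stat3 met the gene limit but not the PROMPT limit. Esrrb, an orphan nuclear receptor, had a gene baseMean of 64437 (401 per kb of span) and a PROMPT of 0.15. Its start coincided with a RefSeq start and no neighbour was annotated in the window. Stat3, the transducer of LIF signalling, had a gene baseMean of 9301 and a PROMPT of 0.76. Zfp42 (REX1) was removed by name with a PROMPT of 5.66. Only 22 of the 25 listed genes had a PROMPT row. Among those 22, a further 8 had gene values under 3000. Of these, Utf1 (20.5), Nr0b1 (19.6), Mycn (13.8) and Prdm14 (9.82) had PROMPTs over the members' median, and Myc (8.30), Dppa3 (5.32), Dppa2 (2.87) and Dppa4 (1.99) were under it.

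**Figure D5:**
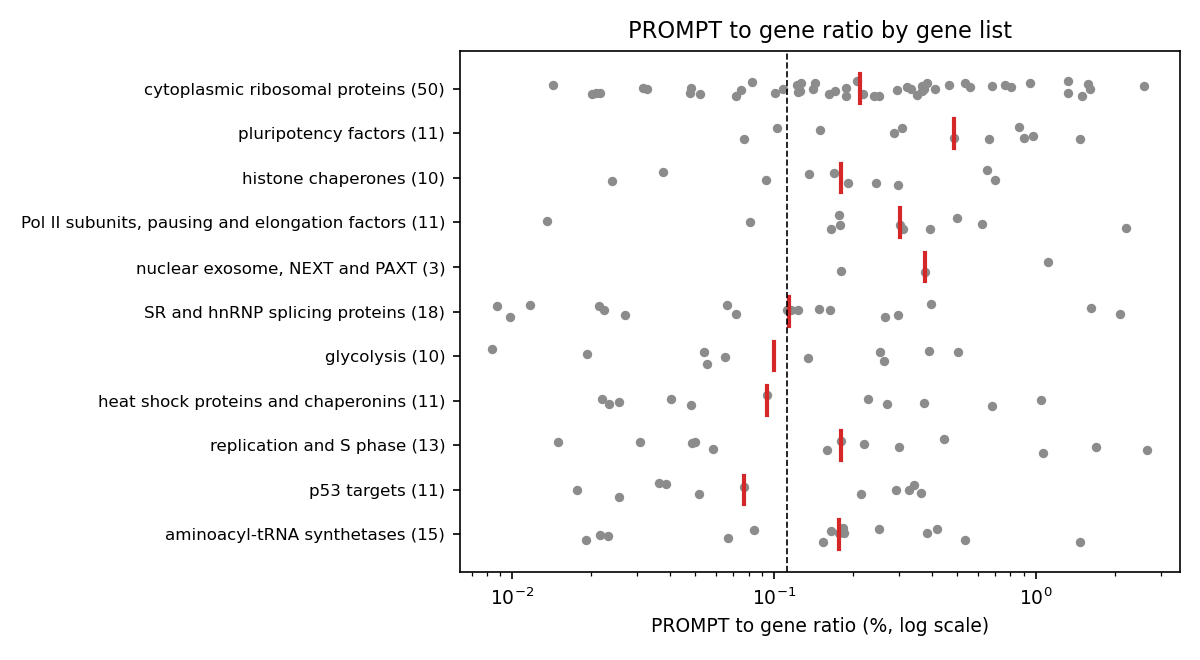
PROMPT to gene ratio (horizontal, %, log scale) of the members in each of 11 gene lists, with the number of members in brackets; grey points are genes (vertical scatter has no meaning), red bars are list medians and the dashed line is the median of all members, 0.112%. The pluripotency median of 0.489% lies farthest to the right and the p53 target median of 0.0765% farthest to the left.

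Histone chaperones, the class FACT belongs to, gave 10 members of 21 listed genes. Their median PROMPT was 30.5 and 7 were over the members' median. Anp32b, a chaperone of the acidic ANP32 family, had the highest at 96.0, followed by Set with 47.1, the H3-H4 chaperone Nasp with 37.3, nucleophosmin (Npm1) with 36.7, the H2A.Z chaperone Anp32e with 34.8 and Chaf1a, the large subunit of CAF-1, with 26.2. Rbbp7 had 18.7, Atrx 7.02, Chaf1b 6.43 and Ubn1, of the HIRA complex, 1.91 with Glyr1 on the opposite strand. Another 4 listed chaperones met the gene limit with a PROMPT under 1 and were no members. They were the nucleosome assembly proteins Nap1l1 with 0.14 beside a gene value of 16392 and Nap1l4 with 0.70 beside 11312, Cabin1 of the HIRA complex with 0.30 beside 15721, and Supt6, an elongation-linked chaperone, with 0.56 beside 8200. Of these windows that of Supt6 alone held an opposite-strand gene, Sdf2. No PROMPT row of Supt16 or Ssrp1, the FACT subunits, was used.

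The machinery that degrades PROMPTs was represented by 3 members of 22 listed genes. Srrt (ARS2), which links capped nascent RNA to its degradation, had a PROMPT of 38.3 and a ratio of 1.11%. Zcchc8, the scaffold of the nuclear exosome targeting complex, had 21.1 and 0.376%, and Exosc10, a catalytic exosome subunit, had 7.58 and 0.180%.

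Genes of polymerase II, pausing and elongation gave 11 members with a median PROMPT of 21.4, and 10 of them were over the members' median. Cytoplasmic ribosomal protein genes, which are short and heavily transcribed, gave 50 members with a median PROMPT of 17.2 and a median ratio of 0.213%. Their PROMPTs ran from 1.31 for Rpl24 and 1.51 for Rps4x to 114 for Rpl28 and 118 for Rpl27a, and 38 of 50 were over the members' median. Per kb of span their median gene level was 1929, where that of all members was 185.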

How the data were processed

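TT-seq libraries of 18 samples in 6 groups were summarised by the authors. After trimming (Trim Galore), the authors mapped reads to mm10 by STAR, kept those with 1 alignment, counted them by strand with featureCounts on Gencode vM25 features and normalised the counts with DESeq2; the submitters' processing notes also name HTSeq and deepTools. PROMPTs lay within 1 kb upstream and antisense of an annotated start. They deposited 4 tables, and those of PROMPTs and genes were used. Only the deposited baseMean, a normalised count signal averaged over libraries by the authors, was used. The other columns hold the authors' own comparison (log2 fold change, its error, p-value and adjusted p-value) and were not used, so no conditions were compared. The lowest values above 0, 0.0266 in the PROMPT table and 0.0216 in the gene table, differ, so the tables may differ in size factors or in the libraries averaged.

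PROMPTs were joined to genes by symbol in Python 3.11.15 with pandas 2.3.3. Gene positions came from Gencode vM21 on GRCm38, and the window was the 1000 bp upstream of the gene start; the start the authors used for genes with several is not given in the sources used here. Sequence was read from RefSeq's GRCm38.p6 assembly, and motif letters were counted in 300 bp promoters. Rank correlation and quantile code was tested on simulated data. Named genes were the 5 highest by PROMPT, by gene level and by ratio (also without an opposite-strand gene), the 5 lowest by ratio, the 2 nearest each side of each limit, and the pluripotency, chaperone and exosome lists; the ribosomal genes named were chosen after their values were seen. A gene that this rule names is not reported here. Members and lists were chosen with earlier results of these data known.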

Additional observations from a re-analysis of the deposited data

How the results depend on the processing

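The number of members (2809) was 4433 with a gene limit of 1000, 927 with a gene limit of 10000 and 1271 with a PROMPT limit of 10. Their median PROMPT to gene ratio (0.112%) was 0.176% and 0.0666% at those gene limits, 0.329% at a PROMPT limit of 10, 0.0507% with every PROMPT above 0, 0.127% without members with an opposite-strand gene and, in an alternative chosen after seeing the data, 0.123% with a RefSeq start within 500 bp. It was 0.623% per kb of exon and 4.73% per kb of span. The rank correlation of PROMPT with gene level (0.11) was 0.15 at a PROMPT limit of 10, 0.0586 with every PROMPT above 0, 0.19 with gene level per kb of exon and, added later, 0.27 per kb of span; it was positive in each of these. The ratio without over with an opposite-strand neighbour, 2.36, was 1.08 at a PROMPT limit of 10, which selects on the ratio's own numerator.

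No paired analysis was possible because the values are means over libraries, and for the same reason no replicate was left out. PROMPTs near the limit of 1 rest on about 1 normalised read per library.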

Other observations

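Other gene lists also had a median PROMPT over that of all members (8.44), as did each of the 11 lists. A position above that median is therefore not particular to any list. Their median ratios lay on both sides of that of all members (0.112%). The 13 members among DNA replication and S phase genes had a median PROMPT of 12.2 with a range of 1.50 to 156, and a median ratio of 0.180%. The 18 members encoding SR and hnRNP splicing proteins had medians of 12.7 and 0.114%, and the 15 aminoacyl-tRNA synthetases 16.1 and 0.178%. The 11 heat shock protein and chaperonin genes had a median PROMPT of 16.5 and a median ratio of 0.0943%, the 11 p53 target genes 11.3 and 0.0765%, and the 10 glycolysis genes 9.67 and 0.0998%. Each of these lists held PROMPTs on both sides of the members' median, and none was tested.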
